A study of Bos taurus and Ovis aries and Capra hircus with 27 samples.

Results

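The 7 genes described here are ND1, ND2, ND3, ND4L, ND4, ND5 and ND6 of the sheep mitochondrial genome, which encode subunits of respiratory complex I. They were taken from the sheep table by identifier (ENSOARG00000000006, ENSOARG00000000010, ENSOARG00000000025, ENSOARG00000000027, ENSOARG00000000028, ENSOARG00000000032 and ENSOARG00000000033, in the order just given). All 7 were listed among 25196 sheep genes, and the cattle, goat and sheep tables together held 71943. The series used here holds messenger RNA libraries of heart, liver and kidney from cattle, goat and sheep. The study as a whole also covered lung, skeletal muscle and spleen, other species, and animals from high and low altitude. The 9 sheep libraries comprised 3 per tissue, from small tail Han sheep of about 3 years, and its methods describe unrelated adult females. The labels name no treatment. Values are FPKM, that is, fragments corrected for the length of the transcript and for how many fragments were mapped in that library. Tissues were sampled whole, so fewer cells of a type and less RNA per cell cannot be told apart.

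Complex I (NADH:ubiquinone oxidoreductase) passes electrons from NADH to ubiquinone and pumps protons across the inner mitochondrial membrane. Its membrane arm is built around the ND proteins, which mitochondria make themselves, while the remaining subunits come from nuclear genes. In mammals the mitochondrial genes are read as long precursors from both strands of a circular genome. ND6 is the only protein gene of the light strand, and the other ND genes lie on the heavy strand. ND4L and ND4 are neighbours whose ends overlap, as do those of ND5 and ND6. Heart muscle is known for its dense mitochondria, and the kidney tubule and the liver cell are also rich in them.

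The sheep identifiers carried no gene names, so the names rest on the place of each identifier in the series 1 to 37, which follows the gene order of the mitochondrial genome. That order was compared with the mitochondrial genes of cattle in RefSeq (assembly ARS-UCD2.0), which served for gene order only. Under the naming used here, all 37 positions had the same kind of gene and, for the 13 protein genes, the same symbol. The names were themselves given by mitochondrial gene order, so this match cannot test what the sheep identifiers are. The expression values did bear on the naming: the 22 positions of transfer RNA genes were listed at 0 in all 9 libraries. Each of the 15 other positions was above 0 in at least 1 library. This pattern does not tell the protein genes from each other. Of the whole table, 26.9% of genes were at 0 throughout. Sheep coordinates and sequences were not analysed here.

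The summed FPKM of a sheep library lay between 416442 and 1284330. It was 945628 to 1284330 in heart, 556349 to 587533 in liver and 416442 to 529787 in kidney, without overlap. The sums thus had the same order of tissues as the ND levels in deposited FPKM described below. The tables hold no read counts, so depth was unknown. A pair of libraries stood apart from their replicates. Sheep heart 2 had the highest sum (1284330, against 989675 and 945628), and in sheep liver 1 fewer genes exceeded 0.5 FPKM (43.6%, against 47.0% and 47.1%). Their bearing on the ND genes is given with the results. Genes known to mark each tissue could not be looked up without names, so the tissue labels were not checked this way.

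The ND genes held a larger part of the heart libraries than of the liver or kidney libraries on average. Their summed level was 129307, 99675 and 111610 FPKM in heart 1, 2 and 3. It was 50481, 28687 and 25276 FPKM in the liver libraries and 12788, 11471 and 12556 FPKM in the kidney libraries. Neither heart and liver nor liver and kidney overlapped. As a share of summed FPKM, the 7 genes made up 13.1%, 7.76% and 11.8% in heart, 9.07%, 5.13% and 4.30% in liver, and 2.64%, 2.17% and 3.02% in kidney. On this scale heart 2 lay below liver 1, so heart and liver overlapped, whereas each kidney library was below all others. The means were 10.9% ± 2.77, 6.17% ± 2.55 and 2.61% ± 0.43 (SD, n = 3). No test was made on sums over the members.

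**Figure D1:**
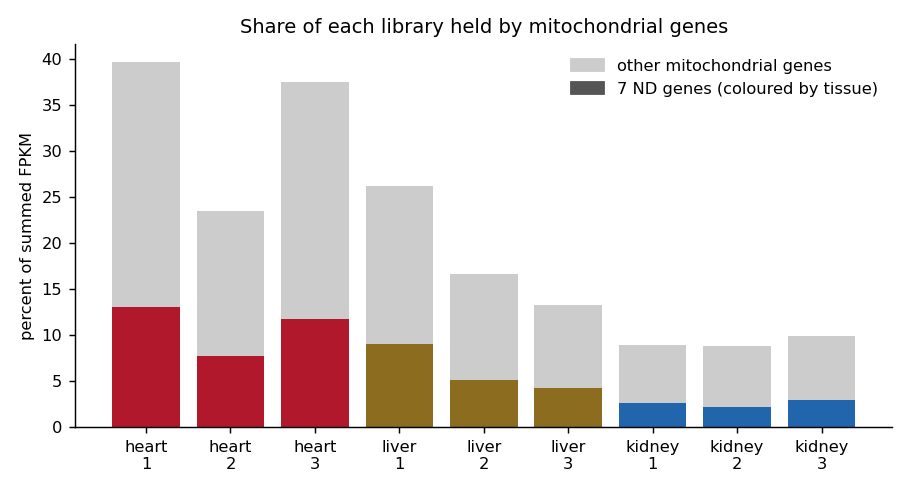
Percent of summed FPKM held by mitochondrial genes in each of the 9 sheep libraries, with the 7 ND genes coloured by tissue and the remaining mitochondrial genes in grey on top. The ND genes held 7.76% to 13.1% in heart, 4.30% to 9.07% in liver and 2.17% to 3.02% in kidney; COX1 was listed at 0 in the heart libraries, so the grey part lacks it there.

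ND2, ND4 and ND5 are the antiporter-like subunits, thought to carry protons through the membrane arm. ND4 had 32384, 20916 and 27509 FPKM in heart, 13730, 8636 and 6711 in liver, and 3643, 2955 and 3484 in kidney. In FPKM, its 3 heart libraries lay above every liver library, and the liver libraries above every kidney library. ND2 had 23368, 19452 and 17400 FPKM in heart, 8641, 4015 and 3556 in liver, and 1812, 1956 and 1807 in kidney. ND5 had 9760, 6394 and 8124 FPKM in heart, 2777, 2596 and 1969 in liver, and 920, 689 and 879 in kidney. Both followed the order of ND4 with no overlap between tissues, and ND5 was at a lower level than ND4 in each of the 9 libraries.

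ND1 lies at the foot of the membrane arm, where ubiquinone enters. It had 22772, 17313 and 19527 FPKM in heart, 12789, 7160 and 6551 in liver, and 2339, 1956 and 2179 in kidney. ND3, a small subunit at the junction of the membrane and matrix arms, had 24640, 27470 and 28597 FPKM in heart, 5944, 3970 and 4158 in liver, and 2921, 3448 and 3268 in kidney. Both were again highest in heart and lowest in kidney without overlap, but for ND3 the lowest liver library was only 1.15-fold above the highest kidney library. For ND1 that ratio was 2.80.

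ND6 was the most variable between replicates of the 6 genes that were above 0 throughout. It had 16015, 8131 and 10081 FPKM in heart, 6507, 2309 and 2267 in liver, and 1129, 467 and 904 in kidney, with the highest library at 1.97, 2.87 and 2.42 times the lowest within heart, liver and kidney. Tissues did not overlap, though the lowest heart library was only 1.25-fold above liver 1. Libraries were strand-specific, but whether the counting used strand is not given in the sources used here. Without it, reads of ND6 and of heavy-strand RNA opposite to it cannot be told apart.

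ND4L, a small subunit encoded just before ND4, was listed far below the others and with gaps. It had 369 and 371 FPKM in heart 1 and 3, 92.5 and 62.9 in liver 1 and 3, and 23.6 and 34.7 in kidney 1 and 3. In replicate 2 of all 3 tissues it was listed at 0. Where it was above 0, its level was between 0.0065 and 0.0135 of that of ND4 in the same library. Its order was heart, liver, kidney in the 6 libraries above 0. ATP8, whose end overlaps its neighbour ATP6, was above 0 in all 9 libraries, at 7511 to 57060 FPKM. Why ND4L was low and at 0 was not tested, and its values are uncertain.

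**Figure D2:**
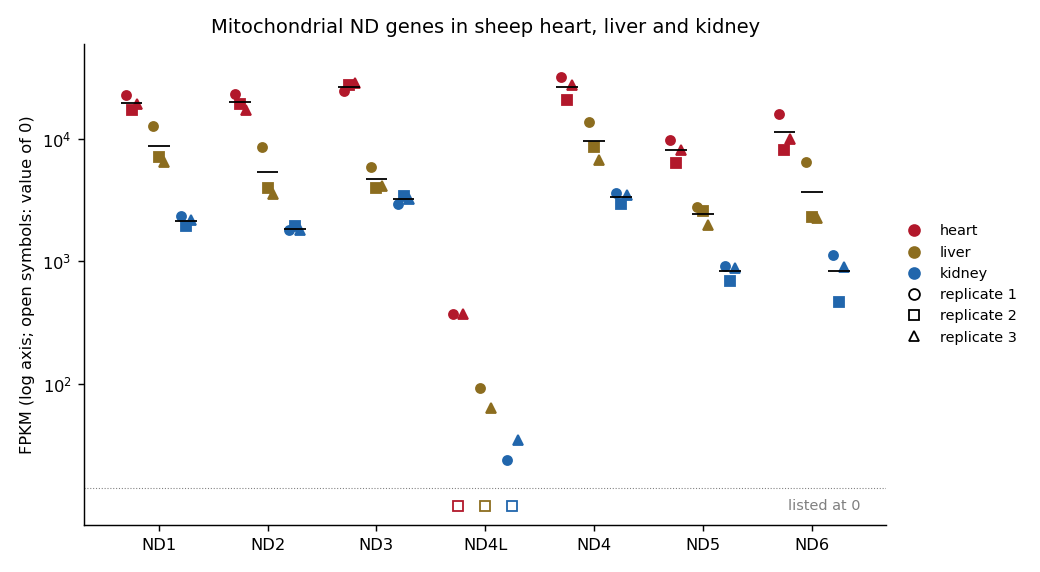
FPKM (log axis) of the 7 ND genes in each sheep library, coloured by tissue with a symbol per replicate; bars are means of 3, and open symbols below the dotted line mark values of 0. For 6 genes the tissues form separate steps in deposited FPKM. ND4, for example, had 20916 to 32384 FPKM in heart, 6711 to 13730 in liver and 2955 to 3643 in kidney. ND4L is lower and at 0 in replicate 2 of each tissue. As shares of summed FPKM, heart 2 fell below liver 1 for 5 of the 6 genes, and heart 3 did so for ND1 and ND6.

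ND4L aside, these transcripts were near the top of the table. Among the 25196 genes, ND4 ranked between 8 and 13 in heart, at 6 in each liver library and between 11 and 22 in kidney. ND5 ranked 17 to 27, 26 to 45 and 54 to 108. Within heart, the mean order was ND4 (26936 ± 5756 FPKM), ND3 (26902 ± 2039), ND2 (20073 ± 3032), ND1 (19871 ± 2745), ND6 (11409 ± 4106) and ND5 (8093 ± 1683; SD, n = 3 each). Neighbours in this order overlapped, other than ND3 with ND2 and ND1 with ND6. In liver, ND1 (8833 ± 3439 FPKM) stood second to ND4 (9693 ± 3627), and ND3 (4691 ± 1089) came after ND2 (5404 ± 2812). ND6 (3695 ± 2436) and ND5 (2447 ± 424) followed, and all neighbours overlapped. In kidney the order was ND4 (3361 ± 361), ND3 (3212 ± 268), ND1 (2158 ± 192), ND2 (1858 ± 84.7), ND6 (834 ± 337) and ND5 (829 ± 123). There, only ND3 with ND1 and ND2 with ND6 did not overlap. Some neighbours that overlapped kept their order within each library. ND6 was above ND5 in all 3 heart libraries, and in all 3 liver libraries ND4 was above ND1 and ND1 above ND2. The other overlapping neighbours changed order between libraries of a tissue.

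The position of the tissues was compared gene by gene with limma on log2(FPKM + 1), fitted over all 9 sheep libraries and 14188 genes above 0.5 FPKM in at least 3 of them, with Benjamini-Hochberg adjustment over these genes and calls at 0.05. All 7 ND genes entered the test. ND4L, with its 3 values of 0, had an SE of 2.49 and passed no comparison. With replicate number as a block its SE was 0.66, and it was called between heart and kidney (2.43, limma adjusted p = 0.0114). Fold changes below are on the log2(FPKM + 1) scale. For the 6 genes with values throughout, heart lay above liver and liver above kidney with no overlap between libraries. This order was held by 1.42% of the genes tested, among them also COX2, ATP8, ATP6, COX3 and CYTB of the mitochondrial genome. For the 6 ND genes it was so for deposited FPKM only. As shares of summed FPKM, a scale added after the data were seen, 0 of the 6 genes and 0.585% of all genes kept that order. On that scale heart 2 fell below liver 1 for ND1, ND2, ND4, ND5 and ND6. Heart 3 also fell below liver 1 for ND1 (2.07% against 2.30%) and ND6 (1.07% against 1.17%). Only ND3 kept heart above liver, and liver stayed above kidney for all of the 6 but ND3. Heart stayed above kidney for all 6.

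Against kidney, 6 of the 7 ND genes were called higher in heart. Of all genes tested, 14.6% were called higher in heart. ND6 differed by 3.81 ± 0.50 (SE, limma adjusted p = 0.000129), ND2 by 3.42 ± 0.36 (limma adjusted p = 3.26e-05) and ND5 by 3.28 ± 0.28 (limma adjusted p = 8.51e-06). ND1, ND3 and ND4 differed by 3.20 ± 0.32, 3.07 ± 0.28 and 2.99 ± 0.34 (SE), with limma adjusted p values of 2.52e-05, 1.23e-05 and 5.66e-05. In mean FPKM the 6 genes were 8.01-fold (ND4) to 13.7-fold (ND6) higher in heart. The median over all genes tested was −0.66, so the ND1 difference was 3.86 above it. All 6 calls held when any 1 library was left out and under 3 other scalings of the libraries, but quantile normalization lowered ND3 to 0.80 (limma adjusted p = 0.0599) and ND4 to 0.61 (limma adjusted p = 0.187). Median ratio scaling raised the share of all calls that were higher in heart from 22.9% to 52.1%, quantile normalization raised it to 46.4%, and scaling to equal sums lowered it to 9.03%, or to 12.5% with sums over genes outside the mitochondrial genome.

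Against liver, the same 6 genes were called higher in heart, by 1.23 to 2.54 on the log2 scale. Of all genes tested, 30.8% were called higher in heart. ND3 differed by 2.54 ± 0.28 (SE, limma adjusted p = 4.02e-05), ND2 by 2.001 ± 0.36 (limma adjusted p = 0.00116) and ND6 by 1.76 ± 0.50 (limma adjusted p = 0.0153). ND5 differed by 1.72 ± 0.28, ND4 by 1.52 ± 0.34 and ND1 by 1.23 ± 0.32 (SE), with limma adjusted p values of 0.000613, 0.00452 and 0.0105. In mean FPKM, ND1 was 2.25-fold and ND3 5.74-fold higher in heart. The median over all genes was 0.25.

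This comparison depended on the scaling and on the filter. Without a filter on low values, ND1 (1.23, limma adjusted p = 0.0905) and ND4 (1.52, limma adjusted p = 0.0641) were not called, at the same differences. ND2, ND3 and ND5 were called under median ratio scaling and with equal sums over genes outside the mitochondrial genome, and ND2 and ND3 with equal sums over all genes. Under quantile normalization none of the 7 was called by limma (1, ND3, had an unadjusted p below 0.05), and ND1 (−0.58) and ND4 (−0.44) changed sign. Quantile normalization sets a value by its rank in the library. ND1 ranked 7 to 9 in liver and 10 to 15 in heart, and ND4 at 6 in liver and 8 to 13 in heart. Both genes thus ranked higher in liver, while their deposited FPKM was higher in heart. With equal sums over all genes, ND1 (0.32, limma adjusted p = 0.491) and ND4 (0.61, limma adjusted p = 0.22) stayed above 0 but were not called. Of all genes called, the share higher in heart went from 65.8% to 52.0% with median ratio scaling, 55.4% with quantile normalization, 43.5% with equal sums over the other genes and 32.5% with equal sums. The number of genes called higher in heart went from 4376 to 3625, 3800, 2539 and 2129. The ND6 call was lost without heart 1 (1.48, limma adjusted p = 0.0643), without liver 2 (1.51, limma adjusted p = 0.0584) and without liver 3 (1.498, limma adjusted p = 0.0585).

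Between liver and kidney, 5 of the 7 genes were called higher in liver, where 12.3% of all genes tested were so called. ND6 differed by 2.05 ± 0.50 (SE, limma adjusted p = 0.00405), ND1 by 1.97 ± 0.32 (limma adjusted p = 0.000383) and ND5 by 1.56 ± 0.28 (limma adjusted p = 0.000691). ND4 differed by 1.47 ± 0.34 and ND2 by 1.42 ± 0.36 (SE), with limma adjusted p values of 0.0032 and 0.00512. ND3 did not pass (0.53 ± 0.28 SE, limma adjusted p = 0.112), passed with median ratio scaling (1.82, limma adjusted p = 0.00738) and without the mean-variance trend (0.53, limma adjusted p = 0.0377), and was at −0.048 under quantile normalization. The median over all genes was −0.95. The 5 calls held under all 4 other scalings. The share of all calls that were higher in liver rose from 17.0% to 49.7% with median ratio scaling and to 41.1% with quantile normalization. Equal sums lowered it to 14.2%, or to 15.8% with sums over genes outside the mitochondrial genome.

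**Figure D3:**
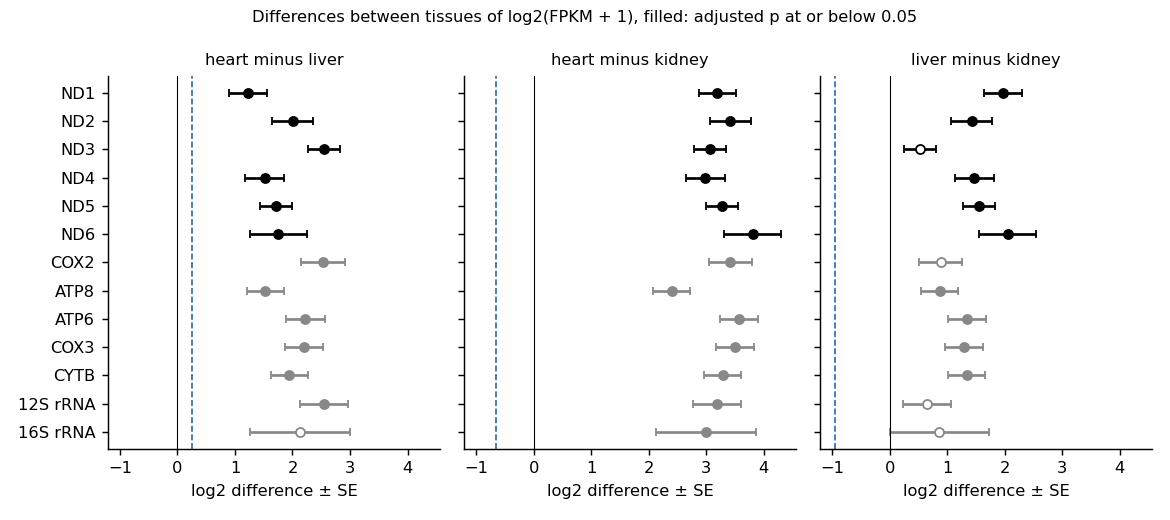
Differences between tissues in log2(FPKM + 1), with error bars of 1 SE from limma, for 6 ND genes (black) and 7 other mitochondrial genes (grey); filled points had an adjusted p at or below 0.05, and the dashed line is the median over the 14188 genes tested. The ND genes lie at 2.99 to 3.81 for heart minus kidney, 1.23 to 2.54 for heart minus liver and 0.53 to 2.05 for liver minus kidney; under quantile normalization ND1 and ND4 (heart minus liver) and ND3 (liver minus kidney) fell below 0.

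**Figure D4:**
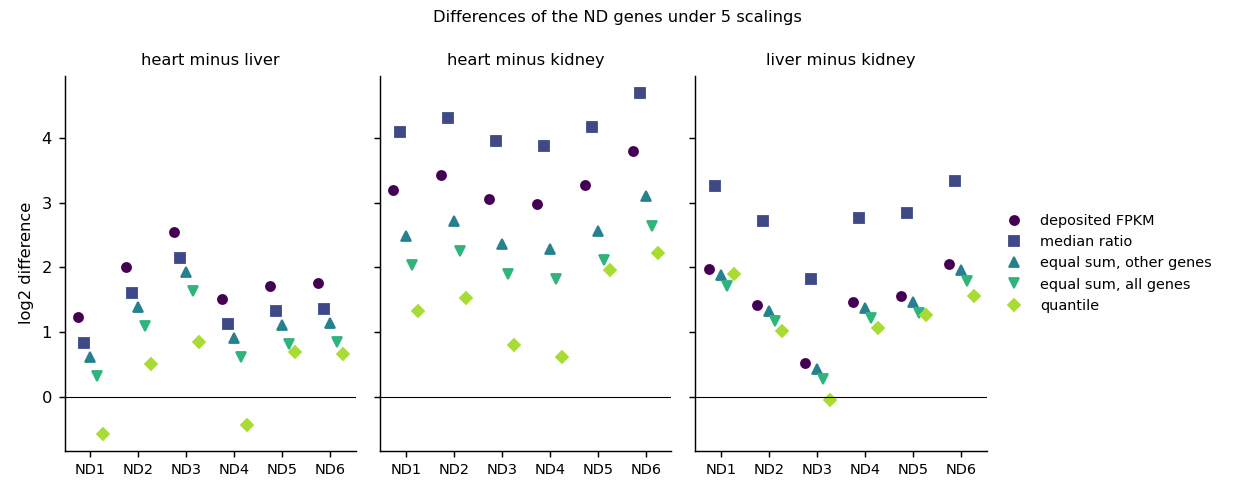
Log2 differences of 6 ND genes in the 3 comparisons with deposited FPKM and with 4 other scalings of the libraries. For heart minus kidney all points lie above 0, from 0.61 to 4.70, whereas for heart minus liver ND1 and ND4 lie below 0 with quantile normalization.

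Sheep liver 1 had more of each ND transcript than its replicates, from 1.22-fold for ND5 to 2.84-fold for ND6 over the mean of liver 2 and 3 (ND4L, at 0 in liver 2, left aside). The 8 other mitochondrial genes were also higher there, from 1.22-fold for ATP8 to 4.32-fold for 16S rRNA. All mitochondrial genes together held 26.2% of summed FPKM in liver 1, against 16.7% and 13.3% in liver 2 and 3. Without this library the 6 heart against liver calls and the 5 liver against kidney calls held. Heart minus liver became 1.53 for ND1, 2.40 for ND2 and 2.26 for ND6, and liver minus kidney became 1.67, 1.02 and 1.55 for these genes. Without heart 2, heart minus kidney ranged from 3.05 for ND3 to 4.02 for ND6 over the 6 genes called. Without replicate 2 in all tissues, a choice made after the values of 0 had been seen, ND4L differed by 3.65 ± 0.32 between heart and kidney (SE, limma adjusted p = 0.00044), by 2.26 between heart and liver (limma adjusted p = 0.00267) and by 1.38 between liver and kidney (limma adjusted p = 0.0103). With 2 libraries per tissue, ND1 (1.20, limma adjusted p = 0.0537) and ND6 (1.73, limma adjusted p = 0.0521) were no longer called between heart and liver, at differences close to those with all libraries.

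Within the ND level, the liver libraries had a larger part of ND1 and a smaller part of ND3 than the others. Shares within a library do not change when the whole library is multiplied by a factor. ND1 made up 25.3%, 24.96% and 25.9% of the summed ND FPKM in liver, against 17.6%, 17.4% and 17.5% in heart and 18.3%, 17.1% and 17.4% in kidney. ND3 made up 11.8%, 13.8% and 16.5% in liver, against 19.1%, 27.6% and 25.6% in heart and 22.8%, 30.1% and 26.0% in kidney. For both genes the liver libraries were apart from all others, above for ND1 and below for ND3. The ratio of ND3 to ND1 was therefore 0.46 to 0.63 in liver, 1.08 to 1.59 in heart and 1.25 to 1.76 in kidney. These ratios were described without a test.

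For the other members, liver was not apart from both other tissues. ND4 made up 23.6% ± 2.24 of the ND sum in heart, 27.95% ± 1.89 in liver and 27.3% ± 1.41 in kidney (SD, n = 3). ND2 made up 17.7% ± 1.99, 15.1% ± 1.78 and 15.2% ± 1.60, and ND5 7.08% ± 0.59, 7.45% ± 1.80 and 6.73% ± 0.64. Tissues overlapped for ND2 and ND5, and heart lay below liver and kidney for ND4. ND6 made up 9.86% ± 2.23, 9.97% ± 2.57 and 6.70% ± 2.42, again with overlap. The ratio of ND6 to its neighbour ND5 on the opposite strand was 1.64, 1.27 and 1.24 in heart, 2.34, 0.89 and 1.15 in liver, and 1.23, 0.68 and 1.03 in kidney. It was highest in replicate 1 of each tissue.

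**Figure D5:**
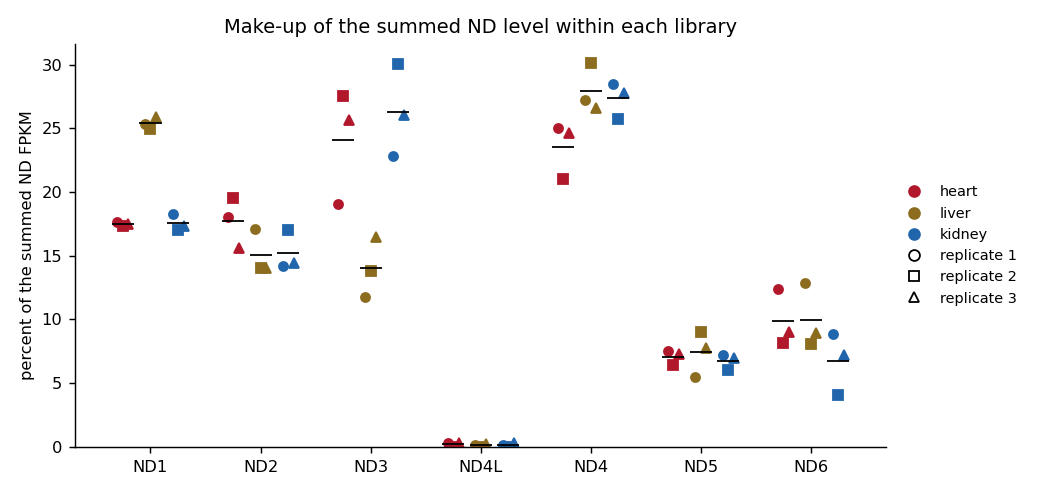
Percent of the summed ND FPKM taken by each of the 7 genes in each sheep library, coloured by tissue with a symbol per replicate; bars are means of 3. ND1 lies at 24.96% to 25.9% in liver and 17.1% to 18.3% elsewhere, and ND3 at 11.8% to 16.5% in liver and 19.1% to 30.1% elsewhere.

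The other genes of the mitochondrial genome, by the same naming, comprised 6 messenger RNAs (COX1, COX2 and COX3 of cytochrome c oxidase, ATP6 and ATP8 of ATP synthase, and CYTB of complex III) and 2 ribosomal RNAs. In the same fit, 7 of these 8 were called higher in heart than in kidney, 6 higher in heart than in liver, and 5 higher in liver than in kidney. COX1 was listed at 0 in all heart libraries beside 12481 ± 2340 FPKM in liver and 5725 ± 940 in kidney. On these values of 0 the fit called COX1 lower in heart than in liver and in kidney, and no fold is given for heart. The 16S rRNA gene did not pass between heart and liver (2.14 ± 0.87 SE, limma adjusted p = 0.068). With COX1 and ND4L left aside for their values of 0, the median over the 7 other genes was 3.29 for heart minus kidney, beside 3.24 over 6 ND genes. It was 2.21 beside 1.74 for heart minus liver, and 0.89 beside 1.51 for liver minus kidney. This median pools messenger and ribosomal RNA genes. Between liver and kidney the 12S and 16S rRNA genes lay at 0.64 and 0.86. COX2, ATP8, ATP6, COX3 and CYTB lay at 0.89, 0.87, 1.35, 1.30 and 1.34. COX1, listed above 0 in all liver and kidney libraries, lay at 1.12. Relative to the 5 messenger RNAs listed above 0 in all libraries, the summed ND level was 0.50, 0.52 and 0.47 in heart, 0.65, 0.55 and 0.60 in liver, and 0.51, 0.42 and 0.54 in kidney. Each liver library thus lay above each heart and kidney library, which was not tested.

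Across the 9 libraries the ND genes moved closely together. Pearson's r of log2(FPKM + 1) ranged from 0.87 (ND1 with ND3) to 0.99 (ND4 with ND5) over the 15 pairs of the 6 genes. Genes of one library share its depth and scaling, and libraries of one tissue share that tissue, so these values are descriptions. As deviations from the tissue means, r ranged from 0.02 to 0.96, with a median of 0.75. The gene most similar to ND2 among the mitochondrial genes was ATP6 (r = 0.99), for ND3 it was COX2 (0.98), for ND4 it was CYTB (0.99), and for ND1, ND5 and ND6 it was ND4 (0.99, 0.99 and 0.98). ND3 was the least similar ND gene to each of the other 5.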

How the data were processed

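The authors deposited log2 values, log2(FPKM + 1) per gene and library, with 1 table per species. According to the study's methods, reads with many unidentified bases, adapter sequence or low quality were removed, the rest were mapped with TopHat to the sheep genome Oar_v3.1, and Cufflinks (2.2.1 per the labels) gave the FPKM. The log was undone here to obtain FPKM. Groups and replicate numbers came from sample titles and columns from sample descriptions. Depth was unknown, since no counts were used here, and no counting intervals are given. Very abundant genes at exactly 0 are said to be listed at 0.

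Tissues were compared with limma 3.58.1 (R 4.3.3) over the 9 sheep libraries, with a mean per tissue and eBayes with trend, after a test of the fit on simulated data. The cattle and goat tables served only to count their genes. Alternatives were another pseudocount (0.1), other filters, 4 scalings, no trend, a block for replicate number and each library left out. Python 3.11.15, numpy 2.4.6, pandas 2.3.3 and matplotlib 3.10.9 were used.

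The members, lists and tests were chosen with earlier results of these data known. The genes named were the 7 members, the 8 other mitochondrial genes that are not transfer RNAs, and the 2 genes outside the mitochondrial genome most similar to the mean of the 6 members that were above 0 in all libraries.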

Additional observations from a re-analysis of the deposited data

How the results depend on the processing

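Of 342 log2 differences of the 6 ND genes above 0 throughout, under the alternatives and in 3 comparisons, 314 kept their direction and side of the threshold. With other filters, without the trend and with the replicate block, the log2 difference itself could not change. The same held when a library of the tissue outside the comparison was left out. In these settings only the side of the threshold could move, so the count says little about direction. Between heart and liver, the number of ND genes called fell from 6 to 3 with median ratio scaling, 2 with equal sums, 3 with equal sums outside the mitochondrial genome and 0 with quantile normalization, which also reversed ND1 (−0.58) and ND4 (−0.44), and ND3 (−0.048) between liver and kidney. Quantile normalization keeps ranks only, and why the number of calls fell was not tested. With quantile normalization, limma gave ND3 an unadjusted p below 0.05, and no other tool was run. Leaving out 1 library gave 5 to 6 ND calls between heart and liver, 6 to 6 between heart and kidney and 5 to 5 between liver and kidney, among 5420 to 7226, 7887 to 10031 and 9610 to 10326 calls over all genes. ND4L, with its values of 0, ranged without 1 library from −0.58 (without liver 2) to 4.35 for heart minus liver, and from −0.71 (without kidney 2) to 3.01 for liver minus kidney, where it was at −0.26 without liver 1. The ND share of heart was 16.9% of the sum over the other genes, and without 1 library the share ranged from 9.78% to 12.4% in heart, 4.72% to 7.10% in liver and 2.40% to 2.83% in kidney.

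Per the study's methods each animal gave all tissues, so the sheep libraries come from 3 animals, but neither these nor the labels say whether a replicate number marks 1 animal. Deviations from the tissue means correlated between libraries of the same number at 0.04 to 0.31, above 0.1 in 8 of 9 pairs, and each library correlated best with its own number in 18 of 18 cases. With the replicate block, ND4L was called between heart and kidney (2.43, limma adjusted p = 0.0114), and 7 ND genes were called there. No other ND call changed, and calls over all genes were 7029 (heart minus liver), 9387 (heart minus kidney) and 10581 (liver minus kidney).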

Other observations

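ND4L was the only gene of the sheep table that was listed at 0 in replicate 2 of heart, liver and kidney while exceeding 10 FPKM in the other 6 libraries. No gene had that pattern for replicate 1 or 3. Without the level of 10 FPKM, 3 genes had it for replicate 2, 4 for replicate 1 and 7 for replicate 3.

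Outside the mitochondrial genome, 162 of 14173 genes (1.14%) had a Pearson's r above 0.9 with the mean log2(FPKM + 1) of the 6 ND genes over the 9 libraries. The highest were ENSOARG00000013108 (r = 0.99), with 497, 343 and 324 FPKM in heart, 100.2, 62.9 and 65.8 in liver and 20.4, 11.9 and 20.4 in kidney, and ENSOARG00000008284 (r = 0.99), with 13.6, 14.7 and 12.9 FPKM in heart, 4.73, 2.09 and 2.93 in liver and at most 0.0577 in kidney. The files used here pair neither identifier with a name.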
